A study of Mus musculus with 8 samples.

Results

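A list of 10 genes of sialic acid metabolism was described in mouse oligodendrocyte progenitor cells kept in low or high glucose. They comprise the sialidases Neu4 and Neu3, the sialyltransferases St8sia1, St8sia2, St8sia4 and St3gal5, the ganglioside synthase B4galnt1, the polysialic acid carrier Ncam1, and Gne and Cmas, which make and activate sialic acid. The 10 genes were listed by name out of 56980 gene IDs in the deposited table, and they were selected on earlier LG against HG values of these same libraries. Their LG against HG values are therefore given as a description, with no p-value, and support nothing. All 10 were found, and all 10 were among the 18905 genes with enough reads to be tested.

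The cells were taken from cortices of wild-type C57BL/6 pups of either sex at postnatal day 6 to 8. Microglia and endothelial cells were first caught on lectin, and the progenitors were then captured with an antibody to PDGFRα. Low glucose cultures (LG, 4 libraries) had their medium exchanged from day 1, which brought glucose to 12.5 mM, then to 5 mM a day later and to 2.5 mM by day 3. High glucose cultures (HG, 4 libraries) had the same exchanges with medium at 25 mM, until both were harvested on day 5. Both groups had grown with bFGF at 20 ng/mL and PDGF-AA at 10 ng/mL, and both kept only PDGF-AA during the experiment. Libraries numbered 1 and 2 carry the same preparation code in both groups, and those numbered 3 and 4 have a code each, so n = 4 counts libraries and not preparations.

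Sialic acid is the sugar that ends many glycan chains at the cell surface. Sialyltransferases add it and sialidases remove it. Polysialic acid is a long chain of this sugar carried mainly by the neural cell adhesion molecule on migrating progenitors, where it lowers adhesion between cells. Gangliosides are sialic acid-bearing lipids, and those recognised by the A2B5 antibody are a classical surface mark of glial progenitors.

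Libraries held 53869166 to 65733928 counts in LG and 50864130 to 61915909 in HG. All 8 progenitor markers passed the filter on low counts. Pdgfra, the receptor used for capture, averaged 1713 ± 303 CPM (read counts scaled to library size) in LG and 1827 ± 360 CPM in HG (SD, n = 4 each). With the replicate block 6 of the 8 progenitor markers lay above 0 in LG against HG, where 50.4% of all tested genes did. Their median log2 fold change was 0.06, against 0.0015 over all tested genes, and -0.04 with GC and length offsets. Their sum was higher in LG in 3 of 4 pairs. Libraries 1 and 2 stood apart from libraries 3 and 4 in astrocyte markers, whose summed level was 1836 to 2034 CPM in the first preparation code and 754 to 910 CPM in the other two. No astrocyte marker was at 0. In these bulk libraries, fewer cells of a type and less RNA per cell cannot be told apart.

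Per length of transcript, the members spanned a wide range of levels. As RPKM, which scales counts to the library total and to exon length, and averaged over the 8 libraries, Ncam1 stood highest at 26.3, followed by Cmas at 12.01, St3gal5 at 9.09, St8sia1 at 8.01 and Gne at 6.89. B4galnt1 followed at 5.00 RPKM, Neu4 at 3.10, Neu3 at 0.670, St8sia4 at 0.458 and St8sia2 at 0.216. Ncam1 and Cmas did not overlap in any library, nor did Cmas and St3gal5, Neu4 and Neu3, or St8sia4 and St8sia2. The other neighbours in this order overlapped in their ranges over libraries. Both polysialyltransferases thus had the lowest mean RPKM of the 10, while their carrier Ncam1 had the highest. The place of St8sia4 rests on an exon length of 20091 bases. In CPM it lay above Neu3, at a mean of 9.03 against 2.22 in LG and 9.40 against 2.24 in HG.

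Neu4 is the sialidase most strongly tied to the oligodendrocyte lineage and is known to act on polysialic acid as well as on gangliosides and glycoproteins. Its gene lies on chromosome 1 from 94020451 to 94028334 on the plus strand (GRCm38, GENCODE M21). Neu3, the plasma membrane sialidase that prefers gangliosides, lies on chromosome 7 from 99811439 to 99828417 on the minus strand. The sequence ahead of each start is shown because these are the sialidases of the list, set side by side. The windows cover 250 to 51 bases before the RefSeq start, at chr1:94020243-94020442 on the plus strand and chr7:99828468-99828667 on the minus strand (GRCm38.p6), and are printed 5′ to 3′ with matches to the searched motifs in capitals.
Neu4: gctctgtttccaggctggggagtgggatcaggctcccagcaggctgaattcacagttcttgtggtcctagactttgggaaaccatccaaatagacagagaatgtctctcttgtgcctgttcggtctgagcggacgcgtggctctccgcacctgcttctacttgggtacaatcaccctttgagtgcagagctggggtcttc
Neu3: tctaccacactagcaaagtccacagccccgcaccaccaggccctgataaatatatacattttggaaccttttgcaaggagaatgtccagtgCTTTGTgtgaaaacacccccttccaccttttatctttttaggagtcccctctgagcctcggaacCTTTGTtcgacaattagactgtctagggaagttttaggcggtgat
A set of 6 motifs was searched on both strands in 32851 such windows. They were the E-boxes CACGTG, held by 4.34% of windows, and CAGCTG, held by 10.3%, the SOX core ACAAAG, held by 13.6%, the MYRF motif CTGGCAC, held by 3.35%, the GC box GGGCGG, held by 24.6%, and TATAAA, held by 9.14%. The Neu4 window held none of these letters. The Neu3 window held the SOX core on the reverse strand at -159 to -154 and at -95 to -90. GC content was 54.5% in the Neu4 window with 5 CpG, and 46.5% in the Neu3 window with 4 CpG, against medians of 51.5% and 4 over all windows.

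Neu4 was higher in LG in every same-numbered pair, on top of a wide spread between libraries. Normalised levels were 11.1, 14.1, 17.6 and 29.1 CPM in LG libraries 1 to 4, against 6.13, 8.14, 11.3 and 17.1 CPM in HG libraries 1 to 4. The groups overlapped, because the HG library numbered 4 exceeded the LG libraries numbered 1 and 2. Within pairs, LG was 1.81, 1.74, 1.55 and 1.70 times HG. Neu4 averaged 18.0 ± 7.85 CPM in LG and 10.7 ± 4.79 CPM in HG (SD, n = 4 each), and the difference between the means was smaller than the SD within LG. The SD of the log2 difference over the 4 pairs was 0.09, against a median of 0.19 over all tested genes. The fitted log2 fold change was 0.75 (SE 0.37) without a block and 0.76 (SE 0.08) with the replicate number as a block, so the estimate stayed while its error fell.

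**Figure D1:**
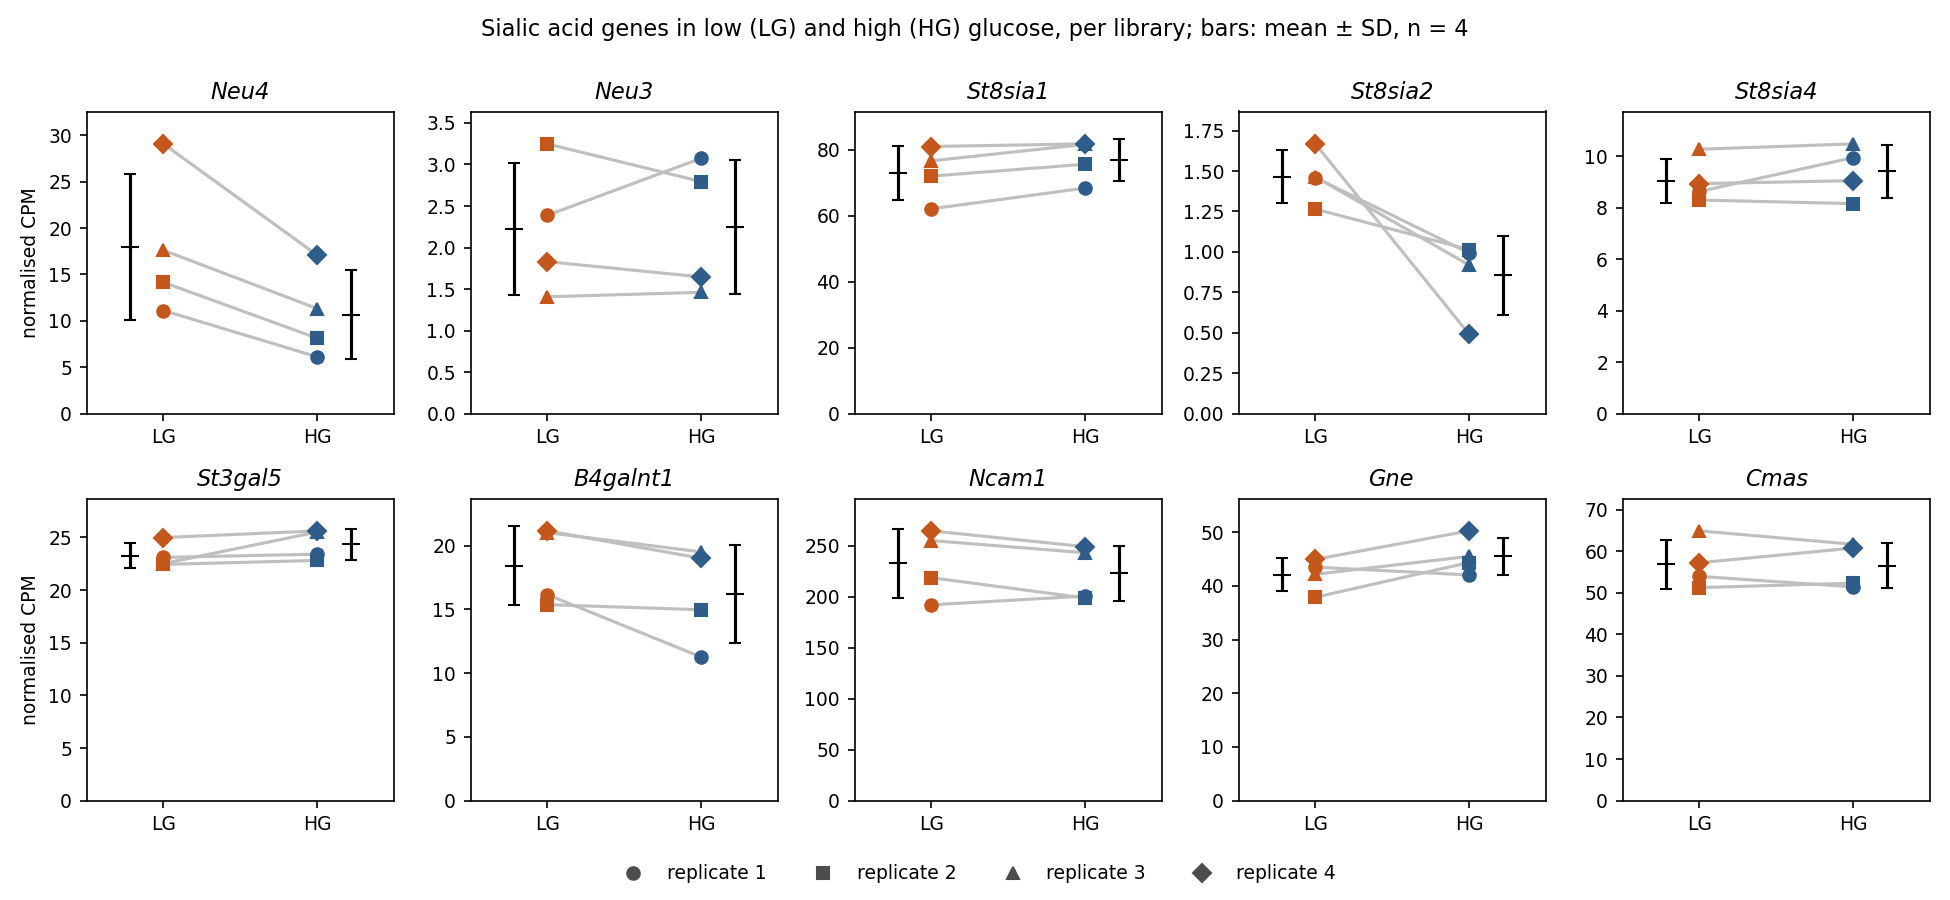
Normalised CPM of the 10 genes in each library, LG on the left and HG on the right of each panel, with grey lines joining same-numbered libraries and bars giving the mean ± SD (n = 4). All 4 Neu4 lines run down from LG to HG, and the St8sia2 groups do not overlap.

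Neu3 showed no common direction. Its levels were 2.39, 3.25, 1.41 and 1.83 CPM in LG libraries 1 to 4, against 3.07, 2.79, 1.46 and 1.65 CPM in HG. The groups overlapped almost wholly, with LG higher in 2 of 4 pairs and a log2 fold change of -0.01 (SE 0.16) with the replicate block.

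St8sia2 and St8sia4 are the polysialyltransferases, which build polysialic acid chains on the neural cell adhesion molecule. St8sia2 lies on chromosome 7 from 73939119 to 74013690 and St8sia4 on chromosome 1 from 95587682 to 95667571, both on the minus strand. They catalyse the same reaction, so their windows are set side by side, at chr7:74013733-74013932 and chr1:95667645-95667844 on the minus strand, with the GC box in capitals.
St8sia2: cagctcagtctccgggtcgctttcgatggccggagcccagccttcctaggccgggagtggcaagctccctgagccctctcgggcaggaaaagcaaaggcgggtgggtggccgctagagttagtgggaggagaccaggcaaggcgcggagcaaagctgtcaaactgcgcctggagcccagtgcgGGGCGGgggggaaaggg
St8sia4: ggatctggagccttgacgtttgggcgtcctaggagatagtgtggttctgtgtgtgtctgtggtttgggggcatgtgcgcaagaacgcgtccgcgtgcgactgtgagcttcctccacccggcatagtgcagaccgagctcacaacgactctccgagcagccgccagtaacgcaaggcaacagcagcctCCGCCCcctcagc
Both windows were richer in CpG than the median of 4, with 13 in St8sia2 and 15 in St8sia4, at a GC content of 67% and 61.5%. Each held 1 GC box, at -67 to -62 on the given strand in St8sia2 and at -63 to -58 on the reverse strand in St8sia4.

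St8sia2 was the 1 member whose groups did not overlap. It had 1.46, 1.26, 1.46 and 1.67 CPM in LG libraries 1 to 4, against 0.994, 1.01, 0.919 and 0.492 CPM in HG. All 4 LG libraries lay above all 4 HG libraries, which was so of 1.07% of tested genes. These levels rest on few reads, 77, 81, 78 and 113 counts in LG and 54, 53, 56 and 29 in HG. The log2 differences over the pairs were 0.54, 0.31, 0.65 and 1.69, and the fitted value with the block was 0.81 (SE 0.25). Leaving out pair 4 brought the St8sia2 value with the block to 0.51. St8sia2 ranked 61 and Neu4 ranked 77 of 18905 by the fold change with the block on all pairs. That contrast chose the members, so the ranks are a description only.

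St8sia4, by contrast, had overlapping groups. It stood at 8.63, 8.29, 10.3 and 8.93 CPM in LG libraries 1 to 4 and at 9.94, 8.15, 10.5 and 9.05 CPM in HG. LG was higher in 1 of 4 pairs, and the log2 fold change of -0.06 (SE 0.09) with the block turned to 0.17 (SE 0.11) once GC content and length were corrected. Ncam1, the carrier, encoded on chromosome 9 from 49502136 to 49798925 on the minus strand, was at 192, 219, 255 and 265 CPM in LG and at 201, 199, 243 and 249 CPM in HG. It overlapped between groups as well, with a log2 fold change of 0.06 (SE 0.06).

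**Figure D2:**
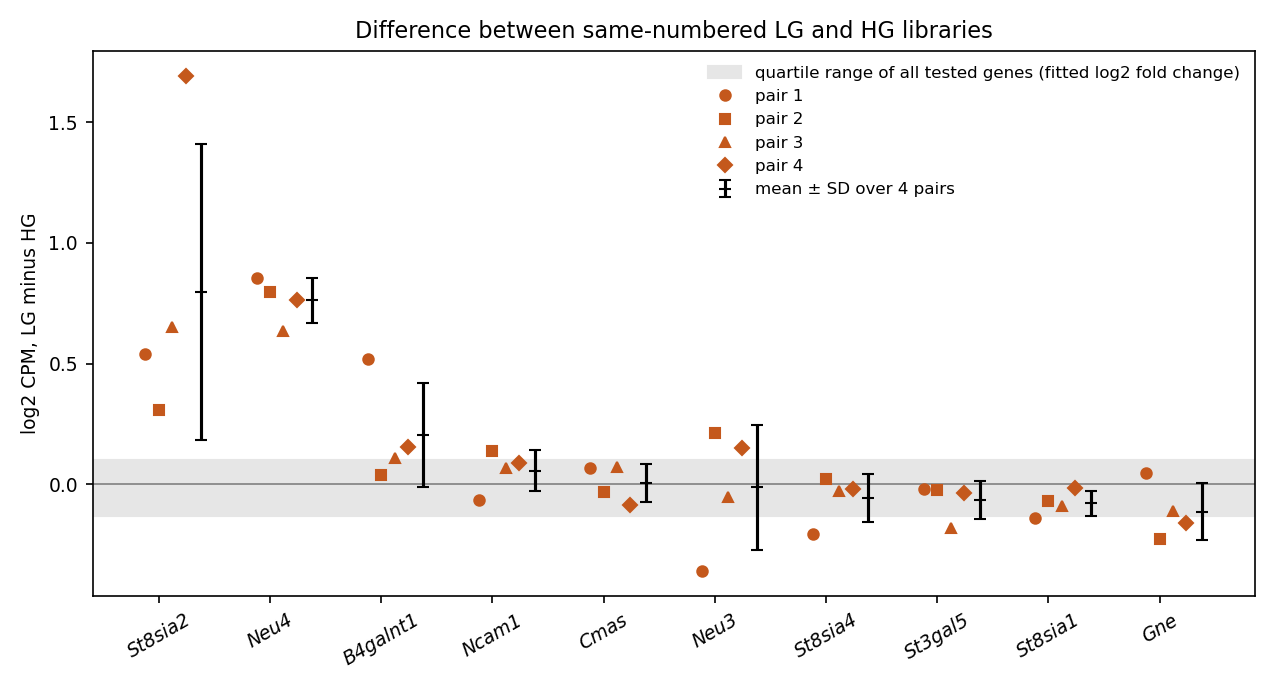
Log2 CPM difference, LG minus HG, of each same-numbered pair for the 10 genes, with the mean ± SD over 4 pairs in black and the quartile range of fitted values over all tested genes in grey. The 4 Neu4 points lie between 0.63 and 0.85, while St8sia2 spreads from 0.31 to 1.69.

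The ganglioside genes lay closer to 0. St3gal5 is on chromosome 6 from 72097592 to 72154571 on the plus strand, and St8sia1 is on the same chromosome from 142821545 to 142964452 on the minus strand. B4galnt1 is on chromosome 10 from 127165225 to 127172330 on the plus strand. St3gal5, the synthase of GM3 from which the other brain gangliosides are built, stood at 23.1, 22.4, 22.5 and 25.0 CPM in LG and at 23.4, 22.8, 25.5 and 25.6 CPM in HG. St8sia1, which makes GD3, stood at 62.0, 72.0, 76.6 and 80.9 CPM in LG and at 68.3, 75.6, 81.6 and 81.7 CPM in HG. Both were lower in LG in 4 of 4 pairs although the groups overlapped, by log2 values of -0.06 (SE 0.07) for St3gal5 and -0.08 (SE 0.06) for St8sia1.

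B4galnt1, which makes GM2 and GD2, had 16.2, 15.4, 21.0 and 21.2 CPM in LG and 11.3, 15.0, 19.5 and 19.0 CPM in HG. It was higher in LG in 4 of 4 pairs, with a log2 fold change of 0.20 (SE 0.09) and with most of the difference in pair 1, at 0.52 against 0.04, 0.11 and 0.15 in pairs 2 to 4. With GC and length offsets the value was 0.09 (SE 0.07).

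The enzymes of sialic acid supply lay near 0 as well. Gne is on chromosome 4 from 44034075 to 44084177 on the minus strand, and Cmas is on chromosome 6 from 142756686 to 142775714 on the plus strand. Gne, the enzyme that opens sialic acid synthesis and limits its rate, was at 43.5, 37.9, 42.2 and 44.9 CPM in LG and at 42.0, 44.4, 45.5 and 50.3 CPM in HG. Its log2 fold change was -0.11 (SE 0.07). Cmas, which activates sialic acid to its CMP form in the nucleus, was at 53.9, 51.2, 64.9 and 57.2 CPM in LG and at 51.4, 52.3, 61.7 and 60.7 CPM in HG, a log2 fold change of 0.01 (SE 0.06). Both overlapped between groups.

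Over the 10 members, 3 were higher in LG in 4 of 4 pairs, Neu4, St8sia2 and B4galnt1, where 10.8% of all tested genes were, and 2 were lower in 4 of 4 pairs, where 11% were. With GC and length offsets beside the block, the small values of St8sia1, St3gal5, Ncam1 and Cmas were -0.04, -0.12, 0.03 and -0.03. The median log2 fold change of the members with the block was -0.0022, against 0.0015 over all tested genes. Without the block edgeR's quasi-likelihood test called 0 of 10 members and 0 of 18905 genes (0%). It put 745 genes at an unadjusted p under 0.05. DESeq2 without the block called 4 genes (0.0212%). With the replicate block Neu4 was the 1 member called, where 0.418% of genes were, 0.111% in the same direction. That contrast chose the members, so nothing is read from this count. DESeq2 with the same block called 2.51% of genes. Leaving out pair 2 ended the Neu4 call with the block, and no gene passed there. Without LG library 4 its log2 fold change without the block was 0.42, and without HG library 4 it was 1.08.

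Differences between the 3 preparation codes were not used in choosing the members and could be tested. Of the 10 members, 4 were called, Neu4, Neu3, Ncam1 and B4galnt1, where 13.7% of all genes were (edgeR's quasi-likelihood F test with glucose group in the model, Benjamini-Hochberg adjusted over 18905 genes, and 15.5% by DESeq2’s likelihood ratio test). The test compares these preparations only, since 4 libraries share the first code and 2 share each of the others. It takes same-numbered LG and HG libraries as independent, although they correlated. Its p-values therefore measure the spread between libraries and not between preparations.

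Neu4 was lowest in the code of libraries 1 and 2 and highest in that of library 4. It was at 6.13 to 14.1 CPM in the 4 libraries numbered 1 and 2, at 11.3 to 17.6 CPM in those numbered 3 and at 17.1 to 29.1 CPM in those numbered 4. Against the first code the log2 difference was 0.57 in the second and 1.23 in the third (edgeR adjusted p = 3.9e-04). Beside these, the LG over HG value was 0.76, and the gap between both kinds of difference was not tested. Neu4 was called in 12 of 12 settings.

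Neu3 went the other way. It was at 2.39 to 3.25 CPM in libraries 1 and 2, at 1.41 to 1.46 CPM in those numbered 3 and at 1.65 to 1.83 CPM in those numbered 4, with no overlap between the first code and the others. The log2 differences were -1.0 and -0.73 (edgeR adjusted p = 0.0128).

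B4galnt1 and Ncam1 were higher in the later codes. B4galnt1 was at 11.3 to 16.2, 19.5 to 21.0 and 19.0 to 21.2 CPM over the 3 codes, by log2 differences of 0.49 and 0.48 (edgeR adjusted p = 0.0208). Ncam1 was at 192 to 219, 243 to 255 and 249 to 265 CPM, by 0.30 and 0.34 (edgeR adjusted p = 0.0161). Neither overlapped between the first code and the others. The calls of Neu3, Ncam1 and B4galnt1 held in 10, 8 and 7 of 12 settings. Leaving out LG library 3 or HG library 3 ended all 3 calls. Leaving out HG library 1 or 2 ended that of Ncam1, and LG library 2 or 4 or HG library 4 that of B4galnt1. The other 6 members, St8sia1, St8sia2, St8sia4, St3gal5, Gne and Cmas, had adjusted p from 0.0629 for Cmas to 0.839 for St8sia2.

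Markers of several cell types differed between the same codes. All 10 astrocyte markers were called, with the summed levels given above, where 13.7% of all tested genes were. So were 8 of 13 premyelinating oligodendrocyte markers, 7 of 9 tested myelin markers and 5 of 8 progenitor markers. Of tested neuron, microglia and endothelial markers, 2 of 10, 0 of 3 and 2 of 2 were called. Premyelinating markers summed to 1895 to 2190 CPM in the first code and 2135 to 2900 CPM in the others. Myelin markers summed to 526 to 601 CPM and 600 to 807 CPM. Cnp, at an average of 476 CPM over the 8 libraries, weighs most in that sum, which does not give the direction of each marker. Mag of the same list was lower in both later codes, by log2 differences of -3.87 and -4.01. Of 8 fibroblast and mural markers 4 were tested and 2 called, with sums of 30.7 to 51.3 CPM in the first code and 7.88 to 9.46 CPM in the others. Progenitor markers summed to 8721 to 9819 CPM in the first code and 11466 to 12146 CPM in the others. Their part in the member differences was not tested.

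**Figure D3:**
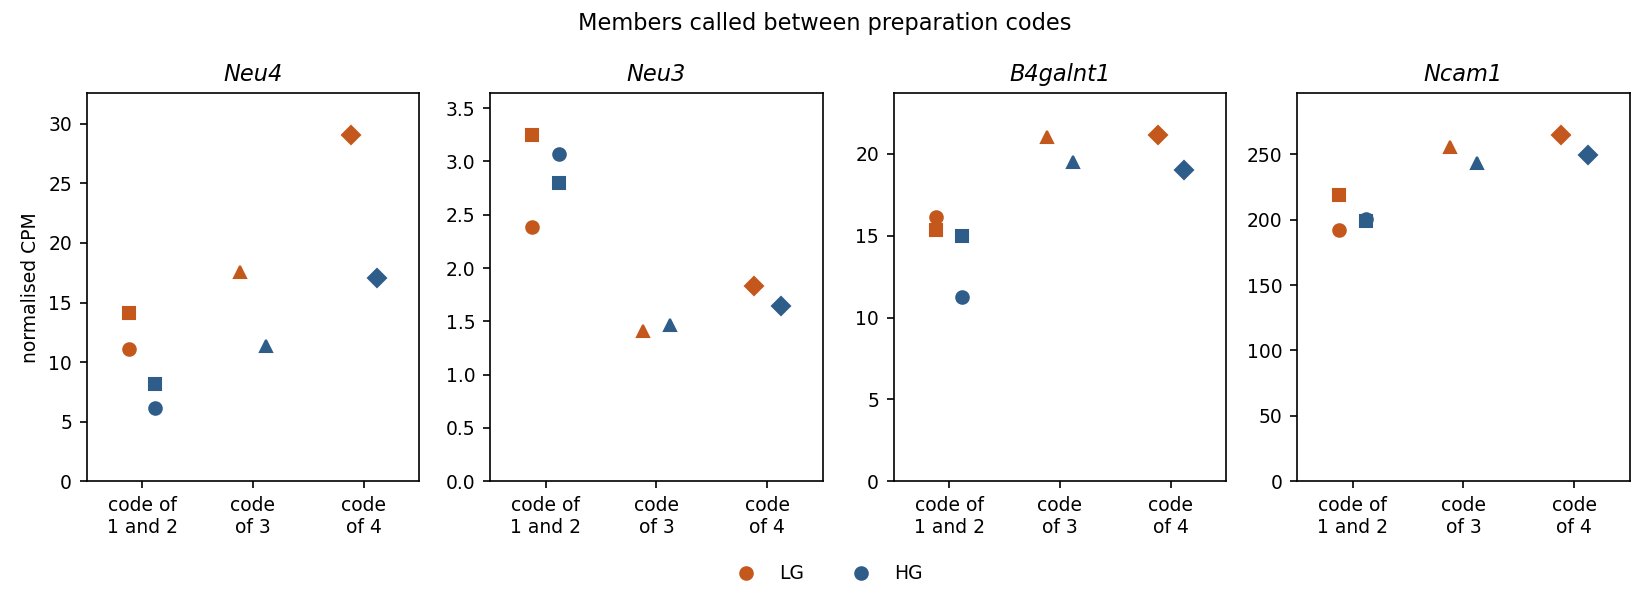
Normalised CPM of the 4 called members by preparation code, with LG libraries left of HG libraries at each code and marker shape giving the library number. Neu4 climbs over the 3 codes in both groups, while Neu3 is highest in the code of libraries 1 and 2.

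Around the members, 57 further genes of sialic acid and ganglioside metabolism were followed, of which 46 had enough reads to be tested. With the replicate block 27 of the 46 were higher and 19 lower in LG, with a median log2 fold change of 0.03, where 50.4% of all tested genes were above 0. By edgeR none of the 46 was called without or with the block, where 0% and 0.418% of all tested genes were. DESeq2 with the block called 4, Uap1l1, Amdhd2, Ctsa and Gm2a, all higher in LG, where 2.51% of all tested genes were called. Of all genes that this fit called, 169 were higher and 305 lower in LG. In 4 of 4 pairs, 11 were higher in LG and 3 lower, against 10.8% and 11% of all genes. Uap1l1, a relative of the enzyme that makes UDP-GlcNAc, the precursor of sialic acid, came nearest. It averaged 25.7 ± 3.60 CPM in LG and 18.4 ± 1.96 CPM in HG (SD, n = 4 each), and was higher in LG in 4 of 4 pairs, with a log2 fold change of 0.47 (SE 0.09, edgeR adjusted p = 0.0520). It was called with GC and length offsets, where 1.31% of genes were, at 0.40 (SE 0.07, edgeR adjusted p = 0.0222).

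The hexosamine list, drawn up around UDP-GlcNAc, had 6 of 8 genes higher in LG and a median log2 fold change of 0.03. Over all tested genes 50.4% were above 0. The list around sialic acid synthesis and transport had 4 of 9 tested genes higher and a median of -0.01. Renbp, which binds renin and epimerises N-acetylglucosamine, was farthest from 0 at 0.15 (SE 0.17). Neither count takes account of whether a gene adds to the supply or draws on it. Cmah, which makes the second form of sialic acid common in mouse tissues other than brain, is listed at 0 in all 8 libraries.

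The sialyltransferases were mixed, members included. Of 6 alpha-2,3 enzymes 3 were higher in LG, with St3gal1 at 0.32 (SE 0.13), and of 7 tested alpha-2,6 enzymes 3 were higher, with St6galnac2 at -0.39 (SE 0.44) on under 1 CPM. Of 6 alpha-2,8 enzymes 2 were higher with the block and 3 without it. The list of polysialyltransferases and carriers also held Ncam2, and whether Ncam2 carries polysialic acid was not measured. Named after its values were seen, Ncam2 averaged 61.4 ± 8.70 CPM in LG and 79.6 ± 12.2 CPM in HG (SD, n = 4 each). It was lower in LG in 4 of 4 pairs, by a log2 value of -0.37 (SE 0.13, edgeR adjusted p = 0.269), and was not called.

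Ganglioside synthesis had 7 of 15 genes higher in LG with a median of -0.06 with the block and 0.01 without it, and B3galt4, which makes GM1, stood farthest at 0.42 (SE 0.16). Ganglioside breakdown had 10 of 11 genes higher and a median of 0.17, or 0.11 with GC and length offsets, where 50.4% of all tested genes were above 0. The 11 include the members Neu4, above 0, and Neu3, below it, which were selected on this contrast. Nothing is therefore read from this count or from a call of Neu4. By edgeR with the block Neu4 was the 1 gene called, where 0.418% of all tested genes were. DESeq2 with the block also called Ctsa and Gm2a, where 2.51% of all tested genes were called. Psap was the most abundant of the 11, at an average of 611 CPM over the 8 libraries, and weighs most in their sum. All 11 were summed to 1310, 1262, 1279 and 1149 CPM in LG libraries 1 to 4, against 1022, 1159, 1064 and 1116 CPM in HG, so LG was higher in 4 of 4 pairs with overlapping groups. Among them, and named after their values were seen, Ctsa, which protects lysosomal sialidase, averaged 83.6 ± 5.08 CPM in LG and 69.7 ± 7.68 CPM in HG, and Gm2a, the GM2 activator, 274 ± 21.3 CPM in LG and 234 ± 17.2 CPM in HG (SD, n = 4 each). Of the 46 genes, 3 had all LG libraries above all HG libraries, Ctsa, Gm2a and Amdhd2 of the hexosamine list, where 1.07% of all tested genes did. A further 1, St8sia6, an alpha-2,8 enzyme, had all LG libraries below, at 0.406 to 0.588 CPM in LG and 0.624 to 0.8997 CPM in HG, where 1.82% of all tested genes did. None of these 4 was called by edgeR with the block. Of the sialic acid receptors only Mag, the myelin receptor for gangliosides, was tested, at a log2 fold change of 0.14 (SE 0.24), and Cd22 and Siglecf were at 0.

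**Figure D4:**
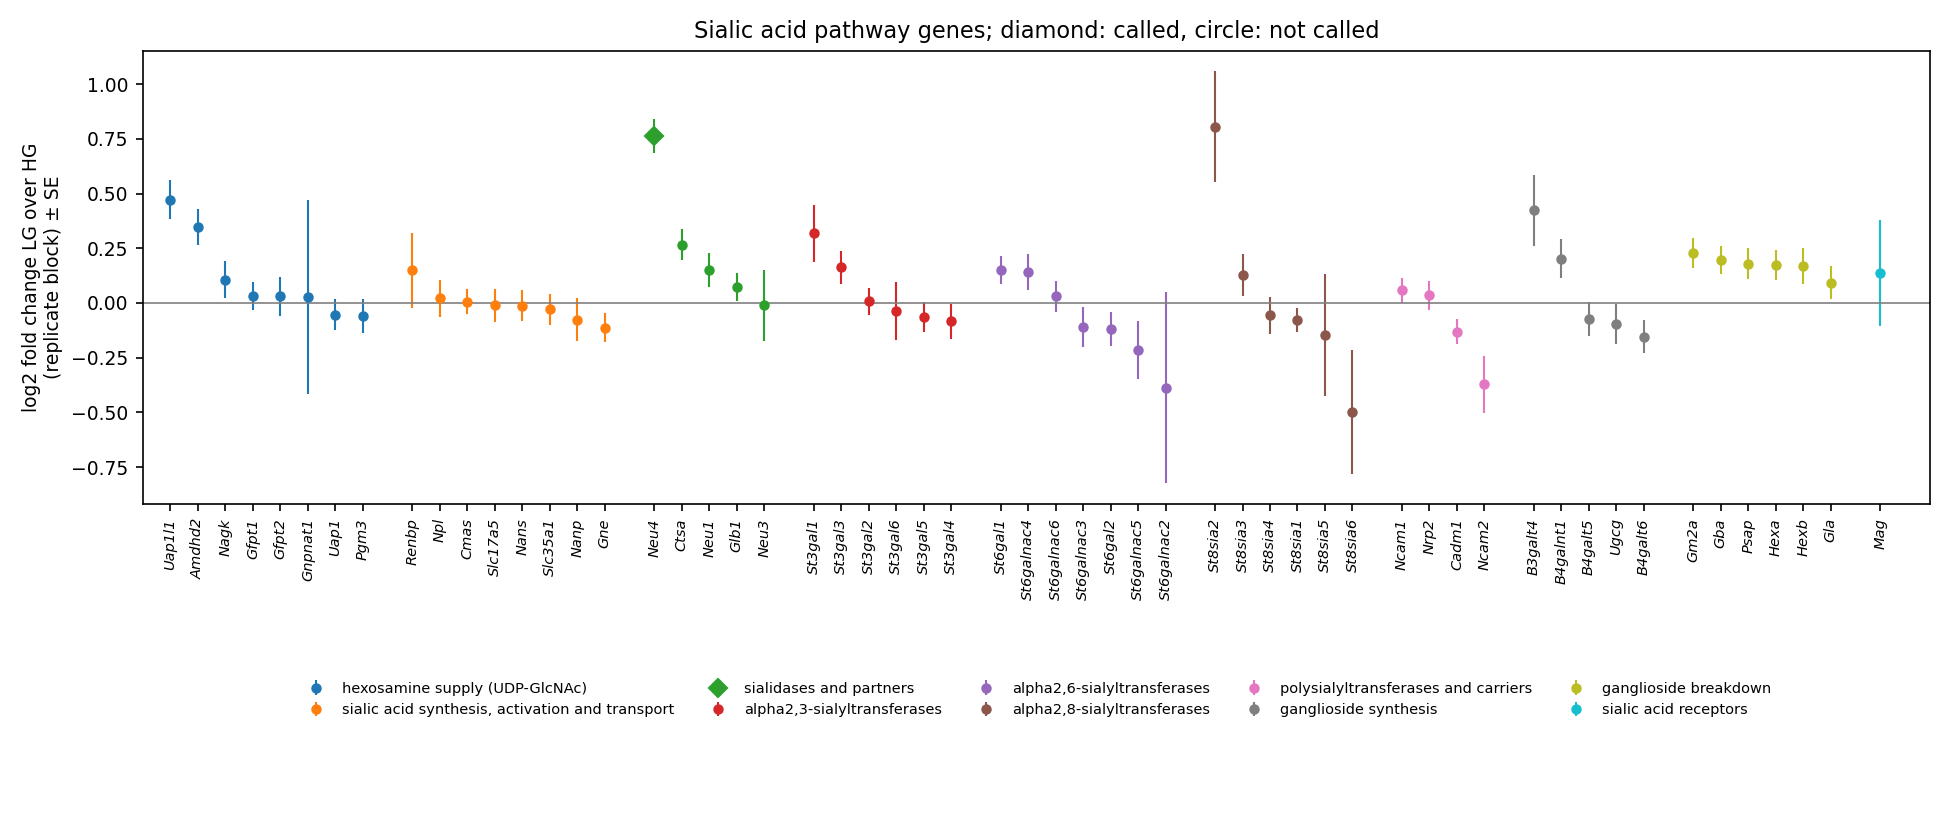
Log2 fold change of LG over HG with the replicate block, ± SE, for the 56 tested genes of the sialic acid lists, each drawn once and coloured by role, with a diamond for a called gene. Neu4 is the 1 diamond, and all 11 genes of ganglioside breakdown but Neu3 lie above 0, counting those drawn with the sialidases.

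Between preparation codes, edgeR called 8 of the 46 genes, or 17.4%, which is near the 13.7% of all tested genes. Mag, St8sia5, St3gal1, St6galnac5, Renbp and Npl were lower in both later codes, with the widest log2 difference in Mag at -4.01 in the third code (edgeR adjusted p = 3.9e-04). St8sia3 and St6gal1 were higher, St8sia3 by 0.68 and 1.11 (edgeR adjusted p = 3.2e-04).

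Genes were ranked by how close their mean-centred log2 CPM profile over the 8 libraries lay to that of Neu4. The measure was the root mean square difference, over 14412 genes with a mean of at least 1 CPM, of which the median was 0.66. Fa2h, which hydroxylates the fatty acids of myelin lipids, was nearest at 0.18, and Myrf, a transcription factor needed for myelin gene expression, was next at 0.18. Fam19a2, Cd82, Capn6, Gpr17, Pcdh8, Slc27a3, Itga9 and Mx2 followed at 0.20 to 0.27. Myrf is on the list of premyelinating markers used here. Gpr17, which marks committed progenitors, is on the list of progenitor markers, so the progenitor counts and sums given above include it. Its log2 fold change with the block was 0.38 (SE 0.07), and its log2 differences from the first code were 0.76 and 1.39. All 10 share the 8 libraries, and with them the preparation differences, with Neu4. Among the members B4galnt1 was nearest at 0.44, rank 280, and Neu3 farthest at 0.98, rank 13538.

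**Figure D5:**
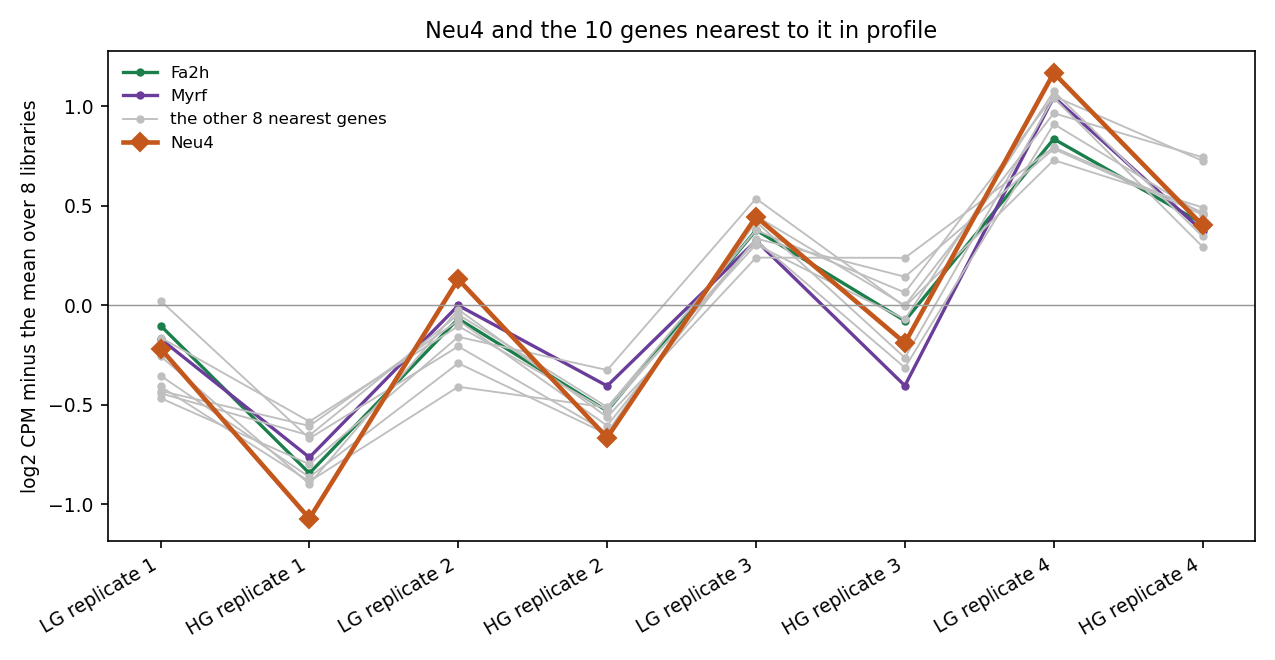
Log2 CPM minus its mean over the 8 libraries for Neu4 and the 10 genes nearest to it, with LG before HG at each library number. Neu4 runs from -1.07 in HG replicate 1 to 1.17 in LG replicate 4.

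The values of the 2 nearest genes by glucose group follow from their likeness to Neu4 over the same libraries and are given as a description. Fa2h averaged 26.7 ± 8.59 CPM in LG and 19.0 ± 7.31 CPM in HG (SD, n = 4 each), a log2 fold change with the block of 0.52 (SE 0.08). Myrf averaged 65.7 ± 26.8 CPM in LG and 42.8 ± 15.5 CPM in HG, at 0.60 (SE 0.07).

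Markers of premyelinating cells lay above 0 beside Neu4. Of 13 such markers, without Neu4, 13 were above 0 in LG against HG, where 50.4% of all tested genes were. Their median was 0.30 with the block, 0.25 without it and 0.23 with GC and length offsets. With the block 1, Myrf, was called, where 0.418% of all tested genes were. Their summed level was 2190, 2081, 2684 and 2900 CPM in LG libraries 1 to 4, against 1898, 1895, 2135 and 2552 CPM in HG, so LG was higher in 4 of 4 pairs. Fyn, the most abundant of them, averaged 701 ± 32.2 CPM in LG and 670 ± 34.0 CPM in HG (SD, n = 4 each). Their part in the Neu4 difference was not tested. Other lists also had medians above 0 with the block, 0.32 for 4 fibroblast and mural, 0.27 for 2 endothelial and 0.12 for 10 astrocyte markers. Myelin and microglia markers had a median of 0.02 each, and neuron markers of -0.07. Microglia markers summed to at most 3.48 CPM, with Cx3cr1 and Itgam at 0, and endothelial markers to at most 7.41 CPM, with Cldn5 and Cdh5 at 0. Myelin markers summed to 526 to 807 CPM in LG and 533 to 756 CPM in HG, and neuron markers to 1371 to 1437 CPM in LG and 1376 to 1638 CPM in HG. Cnp, the most abundant myelin marker, averaged 476 CPM over the 8 libraries, and Map2, the most abundant neuron marker, 875 CPM.

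Some exons of 3 members overlap a gene on the opposite strand, St8sia1 with Gm7457 over 149 bases, B4galnt1 with Slc26a10 over 715 bases and Ncam1 with Gm11149 over 417 bases. These partners held 10 to 23, 4 to 20 and 7 to 27 counts per library, far below the members. The strand setting of the counting is not given in the sources used here, so reads of such pairs cannot be told apart.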

How the data were processed

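RNA was measured in 8 libraries. The authors deposited raw counts, whole numbers per Ensembl ID without any normalization. Per the submitters' processing notes, which give neither role nor order, the tools were CASAVA 1.8.2, STAR, featureCounts and DESeq2, and the build was mm10. Neither annotation release nor strand setting is given in the sources used here. Totals exceed the 15 to 30 M read pairs stated in the labels, so whether 1 count is a read or a pair is not known. Of 56980 IDs, 52073 had a symbol in GENCODE M21.

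Counts were tested in R 4.3.3 with edgeR 4.0.16 (filterByExpr, TMM, robust quasi-likelihood F test, Benjamini-Hochberg adjustment, threshold 0.05). An SE is the absolute log2 fold change over the square root of F. CPM values use TMM factors, and RPKM values use total counts and exon length. DESeq2 1.42.0, blocks, offsets from GC content and length (mgcv 1.9.3) and left-out libraries were alternatives. The scripts were tested on simulated data.

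The members, gene lists and tests were chosen with earlier results of these data known. The genes named were the 10 members, pathway genes called or farthest from 0 in their list, and the 10 nearest to Neu4. Some markers that were abundant, called, at 0 or used for capture were named too. Others, among them Amdhd2, St8sia6 and Psap, were named after their values were seen. The library numbers were taken to pair the libraries. Deviations from the group means correlated across genes at 0.448 to 0.625 between same-numbered libraries and at most 0.419 between others, and numbers 1 and 2 share a preparation code. Nothing beyond the labels says the libraries came from separate cultures, so p-values measure the spread between them. Replicates differed by a chi-square of at least 19.0 per degree of freedom, so none repeats another. Promoter windows came from RefSeq (GRCm38.p6). Of the members, 8 had one, and B4galnt1 and Ncam1 were not matched.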

Additional observations from a re-analysis of the deposited data

Results flagged for a closer look

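St8sia2 in HG library 4 stood far from the other HG libraries, at a log2 CPM of -0.93 against -0.07 to 0.07 in HG libraries 1 to 3, on 29 counts. The gap was 0.862 of the whole range, above the 95% critical value of Dixon’s test for 4 libraries. Of 20 groups of 4 libraries examined this was 1, and chance flags about 1 group in 20.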

How the results depend on the processing

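Against 0 genes called in LG against HG without a block, other settings called 79 with the replicate block, 4 with DESeq2, 474 with DESeq2 and the block, 1 with the preparation block, 17 on sums per preparation with the replicate block, and 247 with the replicate block and GC and length offsets. Leaving out a pair with the block gave 0 to 148 genes, namely 6, 0, 39 and 148 on dropping pairs 1, 2, 3 and 4 in turn, and leaving out a single library without it gave 0. In the sialic acid lists the count was 0 without a block, 1 with the replicate block, 5 with DESeq2 and the block, 1 on sums per preparation, 2 with offsets, and 0 to 2 on leaving out a pair. The 5 were Neu4, Uap1l1, Amdhd2, Ctsa and Gm2a. Neu4 was called in 7 of 23 settings and above 0 in all 23, at 0.42 to 1.08. St8sia2 was above 0 in 23 of 23, at 0.51 to 0.97, and called in none. All 23 settings use these same libraries or some of them. The contrast also chose the members, so nothing is read from these tallies. Neu3, Cmas, Ncam1 and St8sia4 took both signs. The paired fit changed no other member's call. Between preparation codes, 2585 genes were called and 1575 to 2162 on leaving out a library, with 1575 without LG library 3, 1626 without HG library 3 and 1618 without HG library 4. These fits hold fewer libraries. St8sia2 is limited by depth, at 29 to 113 counts per library.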
